A study of Homo sapiens with 6 samples.

Results

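To describe how the genes that report leucine to the kinase complex mTORC1 stood after knockdown of BCAT1, 10 genes were taken by their symbols from a deposited table of 60664 genes. They were the sestrins (SESN1, SESN2 and SESN3), the mTORC1 inhibitors DDIT4 and DEPTOR, the core subunits MTOR and RPTOR, and the Rag GTPases RRAGA, RRAGC and RRAGD. All 10 were in the table, and 8 of them passed the filter on low values. The libraries came from 67R cells, which are NCI-H1975 lung adenocarcinoma cells carrying resistance to the EGFR inhibitor ASK120067 after exposure to rising doses. All 6 libraries were of this resistant line. In the siNC group 3 libraries came from cells given a negative control siRNA, and in the siBCAT1 group 3 came from cells given siRNA against BCAT1, the cytosolic enzyme that reversibly transfers the amino group of leucine, isoleucine and valine. The knockdown is transient, the labels do not number the BCAT1 siRNA, the study's methods give the name siBCAT1 to its siBCAT1-2, and 1 resistant line is the whole model. Nothing states that the replicates were separate cultures, so the p-values measure the spread between these libraries, which may be technical.

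The values are TPM, a relative abundance of transcripts that takes account of how long each gene is and of the library it was read in. They summed to between 992512 and 995593 per library and hold no read depth. BCAT1 itself was between 29.8 and 42.7 TPM in siNC and between 7.10 and 8.78 TPM in siBCAT1 libraries, so the libraries match their labels. The 7 epithelial markers summed to between 2563.6 and 2969.3 TPM in siNC and between 1664.1 and 1951.4 TPM in siBCAT1 cells. Of these 7, 5 were lower at an adjusted p under 0.05 from limma, or 3 without siBCAT1 replicate 1. Over all tested genes 10.4% were lower at this threshold. CDH1 (E-cadherin) fell by 2.41 and KRT19 fell by 1.41 on the log2 scale, while EPCAM was at 0.91 to 1.55 TPM in siNC and at 1.96 to 2.61 TPM in siBCAT1 libraries (log2 fold change 0.56, limma adjusted p = 0.0732). The 8 markers of immune, endothelial and fibroblast cells summed to between 17.6 and 25.9 TPM in siNC and between 12.6 and 15.8 TPM in siBCAT1 cells. Of these 8, 3 passed the filter and 2 were lower, PDGFRB (log2 fold change -0.86) and COL1A1 (-0.68, lost without siNC replicates 1 or 3 or siBCAT1 replicates 2 or 3); CD3E was listed at 0 in all libraries, and VWF and PECAM1 were at most 0.04 TPM. COL3A1, under the filter, was at 0.13 to 0.33 TPM in siNC and at 0.47 to 0.79 TPM in siBCAT1 libraries. The part of these shifts in the results below was not tested. In bulk RNA, fewer cells of a type and less RNA per cell cannot be told apart.

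As background, leucine binds sestrins and frees the GATOR2 complex, which then restrains GATOR1, the complex that switches off RRAGA. A Rag pair of RRAGA or RRAGB with RRAGC or RRAGD sits on the lysosome through the Ragulator complex and, when switched on, draws mTORC1 there by its subunit RPTOR. DDIT4 (also called REDD1) lowers mTORC1 through the TSC complex and the GTPase RHEB, and DEPTOR binds and inhibits the kinase itself. Protein levels, phosphorylation and position of the complexes govern mTORC1 activity, and the mRNA levels given here do not measure it.

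Expression was compared with limma's moderated test on log2(TPM + 1), adjusted by Benjamini-Hochberg over 14286 genes whose mean reached 1 TPM. On this scale a fold change understates that of weakly expressed genes. Of the 8 tested members, 5 passed an adjusted p of 0.05: SESN2 rose, and RPTOR, SESN1, RRAGA and DEPTOR fell. Over all tested genes 27.1% passed, with 16.7% higher and 10.4% lower in siBCAT1 cells. The members' median log2 fold change was -0.30, beside 0.04 for all tested genes. The groups of libraries did not overlap for 6 of the 8 members, where 44.1% of all tested genes had such groups. The count of 5 rests on the full set of libraries: it was 1 without siNC replicate 1 or siBCAT1 replicate 3, 2 without siNC replicate 2, siNC replicate 3 or siBCAT1 replicate 1, and 4 without siBCAT1 replicate 2. Only the call of RPTOR held in each of these 6 fits.

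**Figure D1:**
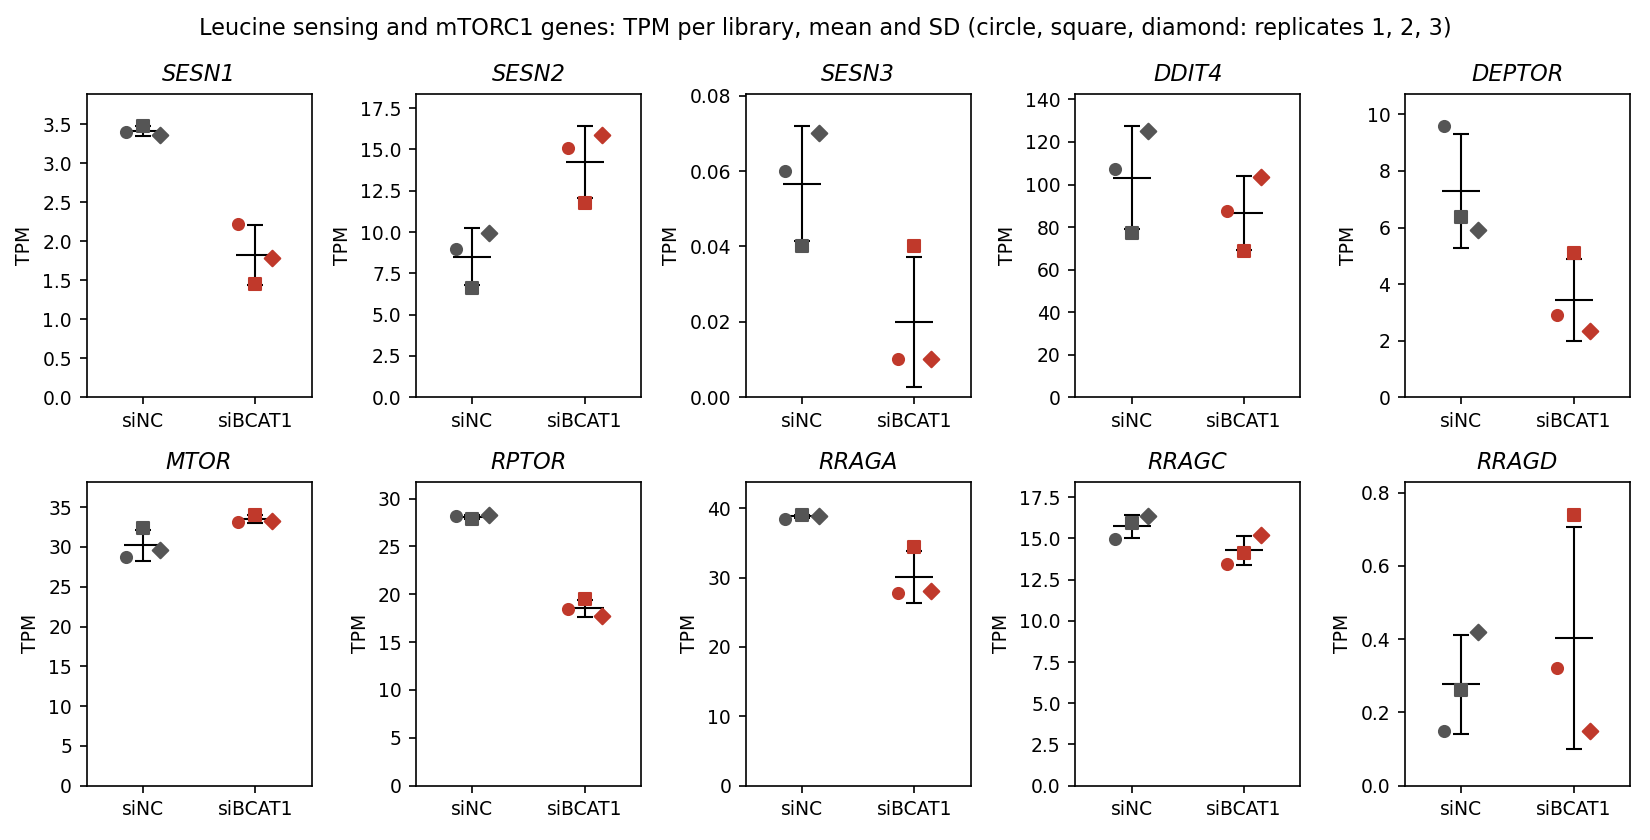
TPM of each of the 10 genes (y axis, linear from 0, own scale per gene) in siNC and siBCAT1 libraries, with points for single libraries and the mean with its SD as a bar. SESN2 and MTOR sat higher in siBCAT1 cells with no overlap of the groups, SESN1, DEPTOR, RPTOR and RRAGA sat lower, and DDIT4 and RRAGC overlapped.

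Among these genes, DDIT4 was the most abundant and SESN3 the least in both groups. In siNC cells the order by mean TPM was DDIT4, RRAGA, MTOR, RPTOR, RRAGC, SESN2, DEPTOR, SESN1, RRAGD and SESN3, and the ranges of SESN2 and DEPTOR overlapped. In siBCAT1 cells MTOR stood before RRAGA, with overlapping ranges, and the ranges of RRAGC and SESN2 overlapped as well. The order of the others was the same in both groups.

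The sestrins moved apart. SESN2, a leucine sensor that is also induced by the stress factor ATF4, was at 8.97, 6.59 and 9.97 TPM in replicates 1, 2 and 3 of siNC. In siBCAT1 it was at 15.1, 11.8 and 15.9 TPM. Every siBCAT1 library lay above every siNC library, and replicate 2 was the lowest in both groups. Its mean went from 8.51 ± 1.74 to 14.2 ± 2.17 TPM (SD, n = 3 each), which made a log2 fold change of 0.69 with a standard error (SE) of 0.17 and a limma adjusted p of 0.0238. The call was lost without siNC replicate 1, siBCAT1 replicate 1 or siBCAT1 replicate 3, with adjusted p up to 0.0921.

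SESN1, a leucine-binding sestrin known as a target of p53 and FOXO factors, was at 3.40, 3.48 and 3.36 TPM in siNC cells. In siBCAT1 cells it was at 2.22, 1.45 and 1.79 TPM. The siNC libraries were close together and all siBCAT1 libraries lay below them, with a log2 fold change of -0.66 (SE 0.16, limma adjusted p = 0.0239). Its call held only without siBCAT1 replicate 1, and leaving out any of the other 5 libraries gave adjusted p between 0.0512 and 0.0601.

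SESN3 was hardly present, at 0.04 to 0.07 TPM in siNC and 0.01 to 0.04 TPM in siBCAT1 cells, and was not tested. So nearly all sestrin mRNA was SESN1 and SESN2, and the ratio of SESN1 to SESN2 was 0.379, 0.528 and 0.337 in siNC against 0.147, 0.123 and 0.113 in siBCAT1 libraries. The difference of the log2 ratios, on log2(TPM + 1), was -1.34, and both the ratios and the separate genes gave groups without overlap. A two-sided exact permutation test gave p = 0.1, the smallest that 3 libraries against 3 allow, and 0.133 after adjustment over the 8 pairs of members compared.

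Since transfected siRNAs can also lower transcripts that pair with their seed, the words facing the seeds of the study's BCAT1 siRNAs were searched on the sense strand of the members' 3′ UTRs. The words were AGACAAT for siBCAT1-1 and TTGAGCA for siBCAT1-2, each read in 1 principal GENCODE 29 transcript per gene on GRCh38. Among 11566 tested genes with such a UTR, 8.98% held the former and 11.4% the latter. None of the 8 tested members held either word, and at these shares few matches would stand among 8 genes in any case. Whether genes with a seed word fell more in these libraries was not tested. The 1 match was in SESN3, for the word of siBCAT1-1 and not for that of siBCAT1-2, at chr11:95169530-95169552 on the minus strand, and is shown because it is the only such stretch among the members, with the seed word in capitals.
SESN3: tattttaaAGACAATtctaaatc
A match is a description of letters, and other transcripts and other regions of the genes were not searched.

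At the level of the complex, RPTOR and MTOR parted. RPTOR, the scaffold that binds the Rag GTPases and presents substrates to the kinase, was at 28.2, 27.9 and 28.3 TPM in siNC and at 18.5, 19.5 and 17.7 TPM in siBCAT1 libraries. The groups lay far apart against their spread, and the mean fell from 28.1 ± 0.222 to 18.6 ± 0.882 TPM (SD, n = 3 each). The log2 fold change was -0.58 (SE 0.07, limma adjusted p = 0.00199), and it lay between -0.61 and -0.54 with each library left out in turn, with adjusted p of at most 0.0145. RPTOR lies on chromosome 17 from 80544819 to 80966371 of GRCh38 (plus strand), and its identifier is ENSG00000141564.

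MTOR, the kinase, was at 28.7, 32.3 and 29.6 TPM in siNC and at 33.2, 34.1 and 33.2 TPM in siBCAT1 cells. All siBCAT1 libraries were above all siNC libraries, but the log2 fold change of 0.15 (SE 0.07) had an adjusted p of 0.185 from limma. Between these genes the ratio of MTOR to RPTOR was 1.02, 1.16 and 1.04 in siNC and 1.79, 1.75 and 1.88 in siBCAT1 libraries, a difference of 0.72 in the log2 ratio (exact permutation p = 0.1, 0.133 adjusted over 8 pairs). It lay between 0.69 and 0.78 with each library left out in turn.

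DEPTOR, the inhibitory subunit, varied more within groups. It was at 9.59, 6.38 and 5.91 TPM in siNC and at 2.90, 5.09 and 2.33 TPM in siBCAT1 libraries. The highest siBCAT1 value, in replicate 2, was still under the lowest siNC value. The log2 fold change was -0.92 (SE 0.26, limma adjusted p = 0.0380). This call held without siBCAT1 replicate 2 and was lost without any of the other 5 libraries, with adjusted p up to 0.136. Relative to MTOR, DEPTOR was at 0.334, 0.197 and 0.200 in siNC and at 0.0874, 0.149 and 0.0702 in siBCAT1 libraries, and the log2 ratio differed by -1.07 (exact permutation p = 0.1, 0.133 adjusted over 8 pairs).

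**Figure D2:**
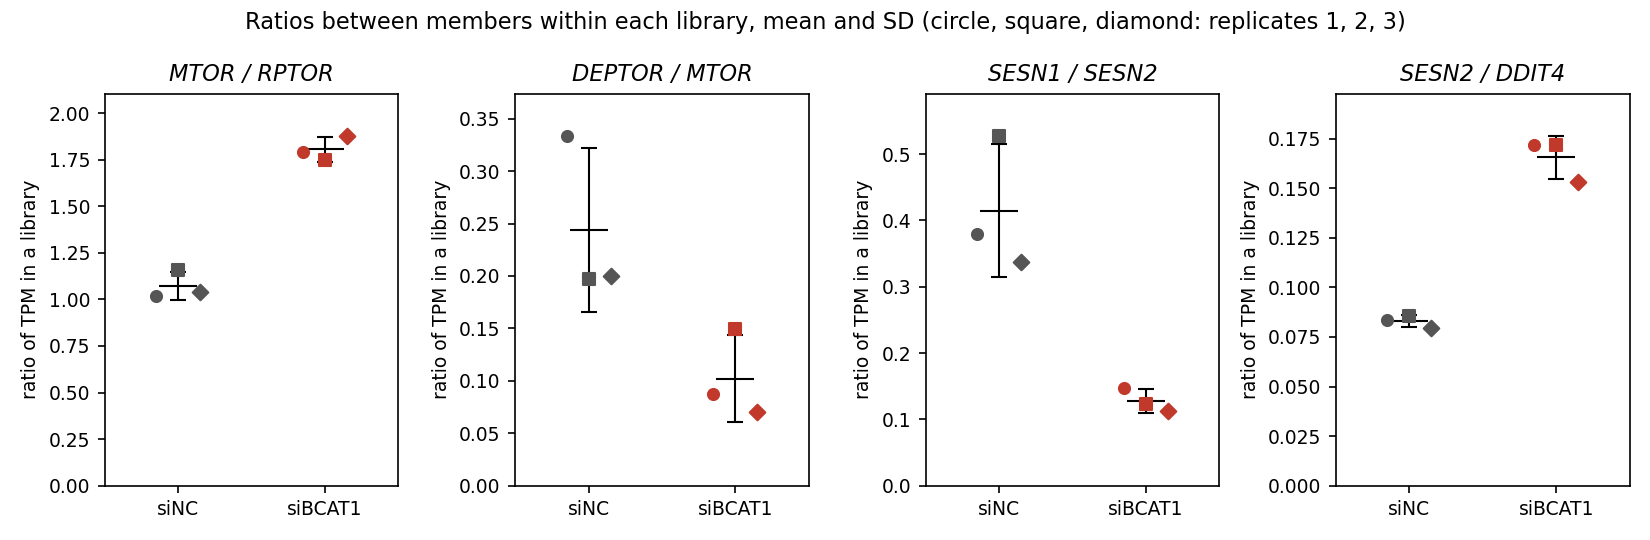
Ratio of the TPM of 2 genes within each library (y axis, linear from 0) for 4 pairs, with points for single libraries and the mean with its SD. MTOR stood at 1.02 to 1.16 times RPTOR in siNC and 1.75 to 1.88 times in siBCAT1 libraries. The groups of the 4 ratios shown did not overlap, and SESN2 to DDIT4 was chosen after the values were seen. Of the pairs not shown, SESN2 to SESN3 did not overlap. The ratios of SESN1 to SESN3, RRAGA to RRAGC, RRAGA to RRAGD and RRAGC to RRAGD did. SESN3 was at most 0.07 TPM and RRAGD at most 0.74 TPM, so TPM ratios to them are uncertain. On log2(TPM + 1), SESN2 to SESN3, SESN1 to SESN3 and RRAGA to RRAGD each gave an exact permutation p of 0.1.

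DDIT4 was at 107, 77.1 and 125 TPM in siNC, against 87.8, 68.7 and 103 TPM in siBCAT1 libraries. The groups overlapped, and replicate 2 was the lowest and replicate 3 the highest in both. Its log2 fold change of -0.24 (SE 0.20) did not exceed the spread between libraries (adjusted p = 0.415 from limma). A limma fit with the replicate number as a block, given below, called DDIT4 lower (adjusted p = 0.0251), though the labels do not pair the libraries. SESN2 and DDIT4 are both known targets of ATF4, and the ratio of SESN2 to DDIT4 was 0.0835, 0.0855 and 0.0797 in siNC against 0.172, 0.172 and 0.153 in siBCAT1 libraries. This pair was chosen after the values were seen. Its log2 ratio differed by 0.93, and p was 0.1 by the exact permutation test, with no adjustment.

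Of the Rag GTPases tested (RRAGA, RRAGB and RRAGC), only RRAGA passed the test. It was at 38.5, 39.0 and 38.9 TPM in siNC and at 27.8, 34.4 and 28.1 TPM in siBCAT1 libraries. The siBCAT1 libraries were all lower, with replicate 2 nearest to the siNC group. The log2 fold change was -0.36 (SE 0.09, limma adjusted p = 0.0287), and the call held without siBCAT1 replicate 2 and was lost without any of the other 5 libraries, with adjusted p up to 0.0945. RRAGB, its close paralogue, which can take its place in the Rag pair, spread from 6.97 to 14.0 TPM in siNC and from 7.49 to 13.0 TPM in siBCAT1 cells, with a log2 fold change of 0.05 (adjusted p = 0.911 from limma). The counting of reads that fit both paralogues is not stated, so their split is uncertain.

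RRAGC, the more abundant partner of RRAGA in these libraries, was at 14.95, 15.91 and 16.35 TPM in siNC and at 13.5, 14.1 and 15.2 TPM in siBCAT1 libraries. The groups overlapped, with a log2 fold change of -0.13 (SE 0.09, limma adjusted p = 0.302). RRAGD, the other partner and a strong target of the lysosomal factors TFEB and TFE3, was at 0.15, 0.26 and 0.42 TPM in siNC and at 0.32, 0.74 and 0.15 TPM in siBCAT1 libraries, which was under the filter and overlapped between groups. The ratio of RRAGA to RRAGC was 2.38 to 2.58 in siNC and 1.85 to 2.43 in siBCAT1 libraries, and its log2 value differed by -0.23 (exact permutation p = 0.2, 0.229 adjusted over 8 pairs).

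Promoters were read for the 250 bases before the start site in RefSeq's table for GRCh38.p14, which matched 7 of the 10 genes with 9 start sites. RRAGA, RRAGD and DEPTOR had no entry and were not searched. On both strands the words searched were CACGTG (an E-box, core of the element bound by TFEB and TFE3), GTAAACA (FOXO) and TGATGNAAN (ATF4). Of all 35116 promoters in the table, 6.34%, 2.98% and 3.13% held these words. The only match among the 7 genes searched was CACGTG in RRAGC, 112 bases before its start site. It is printed from chr1:38859852-38859911 (GRCh38.p14, minus strand) as the one stretch where a searched word stands, which is in capitals and overlaps no other word.
RRAGC: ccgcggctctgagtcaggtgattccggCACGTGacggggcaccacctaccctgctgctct
A match does not show which factor, if any, binds there. No match says only that these letters were not in this window.

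The wider pathway was read from 7 lists holding 75 genes of the table, members included, of which 71 were tested. These lists were chosen with earlier results of these data known. Of these, 14 rose and 14 fell, 39.4% in all against 27.1% of all tested genes, and the median log2 fold change was 0.01. Without the members, 13 of 63 rose and 10 fell, 36.5% in all. The count over the 71 genes was 15 without siNC replicate 1 and 17 without siBCAT1 replicate 3. Of the 28 genes called, 14 kept their call with each library left out in turn, and none changed direction under any alternative.

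Among the amino acid sensors, 2 rose and 2 fell of 8 tested, 50.0% against 27.1% of all tested genes. The 4 calls became 1 without siNC replicate 1 and 2 without siNC replicate 3, siBCAT1 replicate 2 or siBCAT1 replicate 3. CASTOR1, the arginine sensor that binds GATOR2, fell from 26.9, 11.9 and 26.3 TPM in siNC to 7.34, 5.72 and 6.96 TPM in siBCAT1 libraries, with siNC replicate 2 far under the other siNC libraries. Its log2 fold change was -1.49 (SE 0.29, limma adjusted p = 0.0101), and the call was lost without siNC replicate 1, siNC replicate 3 or siBCAT1 replicate 2, at adjusted p up to 0.0542. LARS1, the leucyl-tRNA synthetase, rose from 48.8 ± 2.55 to 65.6 ± 5.69 TPM (SD, n = 3 each) at a log2 fold change of 0.42 (adjusted p = 0.0104 from limma).

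In the complexes between the sensors and the Rag GTPases, subunits went in both directions. In GATOR1 and its lysosomal anchor KICSTOR, NPRL3 rose by 0.41 and C12orf66 (the KICSTOR subunit KICS2) by 1.13 on the log2 scale. DEPDC5 fell by 0.35, while 4 of 7 did not pass. The calls made 42.9% of this list, against 27.1% of all tested genes. The call of DEPDC5 was lost without siNC replicate 1, siBCAT1 replicate 2 or siBCAT1 replicate 3, at adjusted p up to 0.0587. C12orf66 was at 2.41, 1.22 and 1.35 TPM in siNC and 5.73, 3.76 and 4.88 TPM in siBCAT1 libraries. In GATOR2, SEC13, which also serves in the nuclear pore and in vesicle coats, and WDR24 each rose by 0.41 on the log2 scale. The other 3 subunits did not pass, so 40.0% of this list were called. WDR24 kept its call only without siNC replicate 2 or siNC replicate 3, with adjusted p up to 0.0657 otherwise.

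Of 11 tested genes of the Rag GTPases, Ragulator and folliculin, 2 rose and 5 fell, 63.6% against 27.1% of all tested genes. The 7 calls became 3 without siNC replicate 1 or siBCAT1 replicate 3, and 4 without siNC replicate 3, siBCAT1 replicate 1 or siBCAT1 replicate 2. Ragulator, the complex that holds the Rag GTPases on the lysosome, had subunits that rose and subunits that fell. LAMTOR2 was at 103, 93.0 and 99.0 TPM in siNC and at 54.6, 52.1 and 46.8 TPM in siBCAT1 libraries, without overlap and with a log2 fold change of -0.93 (SE 0.08, limma adjusted p = 0.000437). LAMTOR4 went the other way, from 45.6 ± 1.87 to 69.3 ± 2.29 TPM (SD, n = 3 each) at a log2 fold change of 0.60 (SE 0.06, limma adjusted p = 0.00109). LAMTOR1 rose by 0.30 and LAMTOR3, named after its value was seen, fell by 0.49 on the log2 scale, while LAMTOR5 had a log2 fold change of 0.15 (adjusted p = 0.0561 from limma). The call of LAMTOR1 held only without siNC replicate 2 or siBCAT1 replicate 3, and that of LAMTOR3 was lost without siBCAT1 replicate 1 or 3, at adjusted p up to 0.0640 and 0.0649.

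Folliculin (FLCN), which with a FNIP partner switches RRAGC and RRAGD to their active form, fell from 45.3 ± 6.04 to 30.7 ± 3.67 TPM (SD, n = 3 each) at a log2 fold change of -0.54 (SE 0.12, limma adjusted p = 0.0176). FNIP2 fell by 0.51 (adjusted p = 0.0451 from limma), and FNIP1 had a log2 fold change of -0.22 (adjusted p = 0.173 from limma). The call of FLCN was lost without siNC replicate 1, siBCAT1 replicate 2 or siBCAT1 replicate 3, at adjusted p up to 0.0672, and that of FNIP2 held only without siBCAT1 replicate 1, at adjusted p up to 0.105 otherwise.

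Of 12 subunits and assembly factors of mTORC1 and mTORC2, 4 rose and 3 fell, 58.3% against 27.1% of all tested genes. The 7 calls became 4, with 2 rises, without siNC replicate 1, siNC replicate 3, siBCAT1 replicate 1 or siBCAT1 replicate 3. AKT1S1 (PRAS40), which like DEPTOR inhibits mTORC1, was at 43.6, 41.6 and 44.7 TPM in siNC and at 65.4, 71.8 and 77.8 TPM in siBCAT1 libraries. The groups did not overlap, and the log2 fold change was 0.71 (SE 0.08, limma adjusted p = 0.00124), so the 2 inhibitory subunits changed in opposite directions. MLST8, shared by both complexes, had a log2 fold change of 0.21 (adjusted p = 0.0553 from limma). TELO2 and TTI1, which help to assemble the complexes and are named here with their values known, rose by 0.35 and 0.32 on the log2 scale. The call of TELO2 held only without siNC replicate 2 and that of TTI1 only without siBCAT1 replicate 2, with adjusted p up to 0.0993 and 0.0804 otherwise. In mTORC2, MAPKAP1 (SIN1) rose by 0.60, PRR5L fell by 0.61, and RICTOR, the counterpart of RPTOR, ranged from 6.88 to 9.70 TPM in siNC and from 8.46 to 12.2 TPM in siBCAT1 cells (log2 fold change 0.21, adjusted p = 0.402 from limma).

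Between growth factor signals and RHEB, 2 of 13 tested genes passed, 15.4% against 27.1% of all tested genes. AKT1, the kinase downstream of PI3K, rose by 0.50 on the log2 scale (adjusted p = 0.00328 from limma). DDIT4L and PRKAA2 were listed at 0 in all libraries. Of 15 substrates and effectors of mTORC1, 3 passed, 20.0%, which was also under the 27.1% of all tested genes. ULK1, the autophagy kinase that mTORC1 restrains, fell by 0.62, EIF4EBP2, a translation repressor, fell by 0.54, and its relative EIF4EBP3 rose by 0.95 from 2.02 ± 0.352 to 5.01 ± 1.94 TPM (SD, n = 3 each). The call of EIF4EBP3 was lost without siNC replicate 1, siNC replicate 3 or siBCAT1 replicate 2, at adjusted p up to 0.0904.

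**Figure D3:**
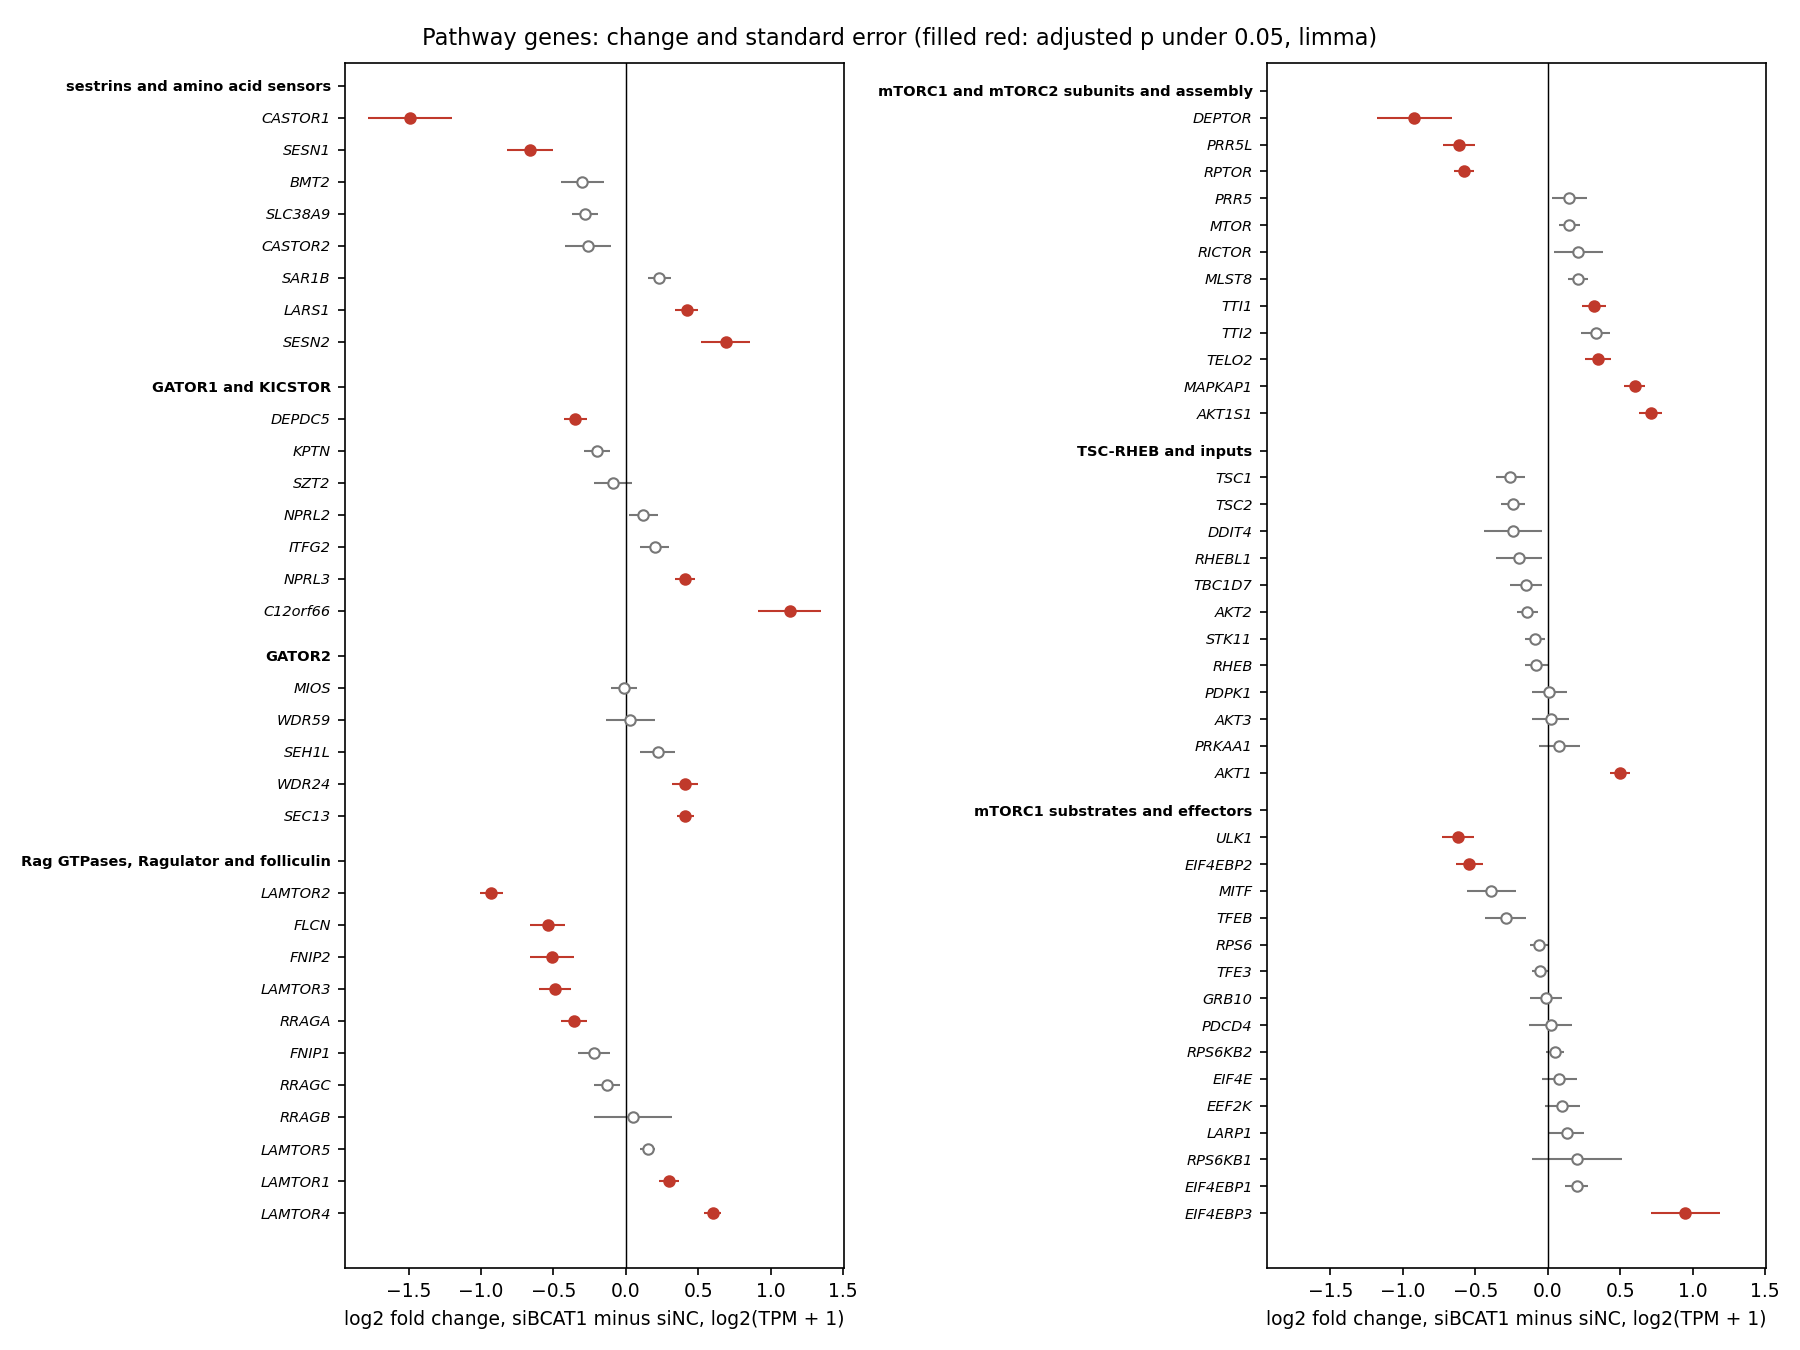
Log2 fold change (x axis, siBCAT1 minus siNC on log2(TPM + 1)) with its standard error for 70 of the 71 tested genes of the 7 pathway lists. Filled red points had an adjusted p under 0.05 from limma: 14 stand to the right of 0 and 13 to the left (1 further gene called lower is not reported here), and within GATOR1 with KICSTOR, Ragulator and mTORC1 they stand on both sides.

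Lists of genes driven by factors that control the members were read in the same fit. All of them were chosen with earlier results of these data known, and those of FOXO and ATF4 hold members. Their shares describe the lists and are no separate support for the members' changes. In the list of FOXO factors and their targets, to which SESN1 belongs, 10 of 16 tested genes fell and none rose, where 10.4% of all tested genes fell, with a median log2 fold change of -0.73 beside 0.04 for all genes. SESN1 and FOXO4 were among the 10 calls. No list of p53 targets was read, so whether the fall of SESN1 goes with FOXO targets alone was not tested. These calls became 3 without siNC replicate 1, 5 without siNC replicate 3 or siBCAT1 replicate 2, and 6 without siBCAT1 replicate 3. CDKN1B, the cell cycle inhibitor p27, fell from 49.2, 41.1 and 49.7 TPM in siNC to 18.3, 15.2 and 18.9 TPM in siBCAT1 libraries, a log2 fold change of -1.37 (SE 0.11, limma adjusted p = 0.000418). PIK3IP1, an inhibitor of PI3K, fell by 1.13 (adjusted p = 0.0370 from limma), a call that held only without siNC replicate 2, with adjusted p up to 0.129 otherwise. FOXO1 and FOXO3 themselves had log2 fold changes of -0.22 and -0.15 (adjusted p = 0.355 and 0.323 from limma). FOXO4, named after its value was seen, fell from 4.38 ± 1.06 to 1.95 ± 0.480 TPM (SD, n = 3 each). Its log2 fold change was -0.86 (SE 0.21, limma adjusted p = 0.0225). That call held only without siNC replicate 2 or siBCAT1 replicate 1, with adjusted p up to 0.0816 otherwise.

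In the list of ATF4 and its targets, to which SESN2 and DDIT4 belong, 8 of 21 tested genes rose and 2 fell, where 16.7% of all tested genes rose and 10.4% fell, with a median of 0.26 beside 0.04. The 8 rises, SESN2 and ATF4 among them, became 5 without siBCAT1 replicate 1 or siBCAT1 replicate 3. ATF4 itself moved from 373 ± 23.0 to 447 ± 39.0 TPM (SD, n = 3 each) at a log2 fold change of 0.26 (SE 0.08, limma adjusted p = 0.0451) whose call held only without siBCAT1 replicate 2, at adjusted p up to 0.136 otherwise. DDIT3 (CHOP) rose by 0.98 (adjusted p = 0.00119 from limma), the largest rise of the list. VLDLR, a lipoprotein receptor, fell by 1.03. SLC7A5 (LAT1), a subunit of the main leucine importer, fell from 313 ± 7.21 to 226 ± 11.1 TPM (SD, n = 3 each). Its log2 fold change was -0.47 (SE 0.05, limma adjusted p = 0.00129). SLC3A2, the other subunit, is named with its value known and had a log2 fold change of 0.04 (adjusted p = 0.786 from limma).

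**Figure D4:**
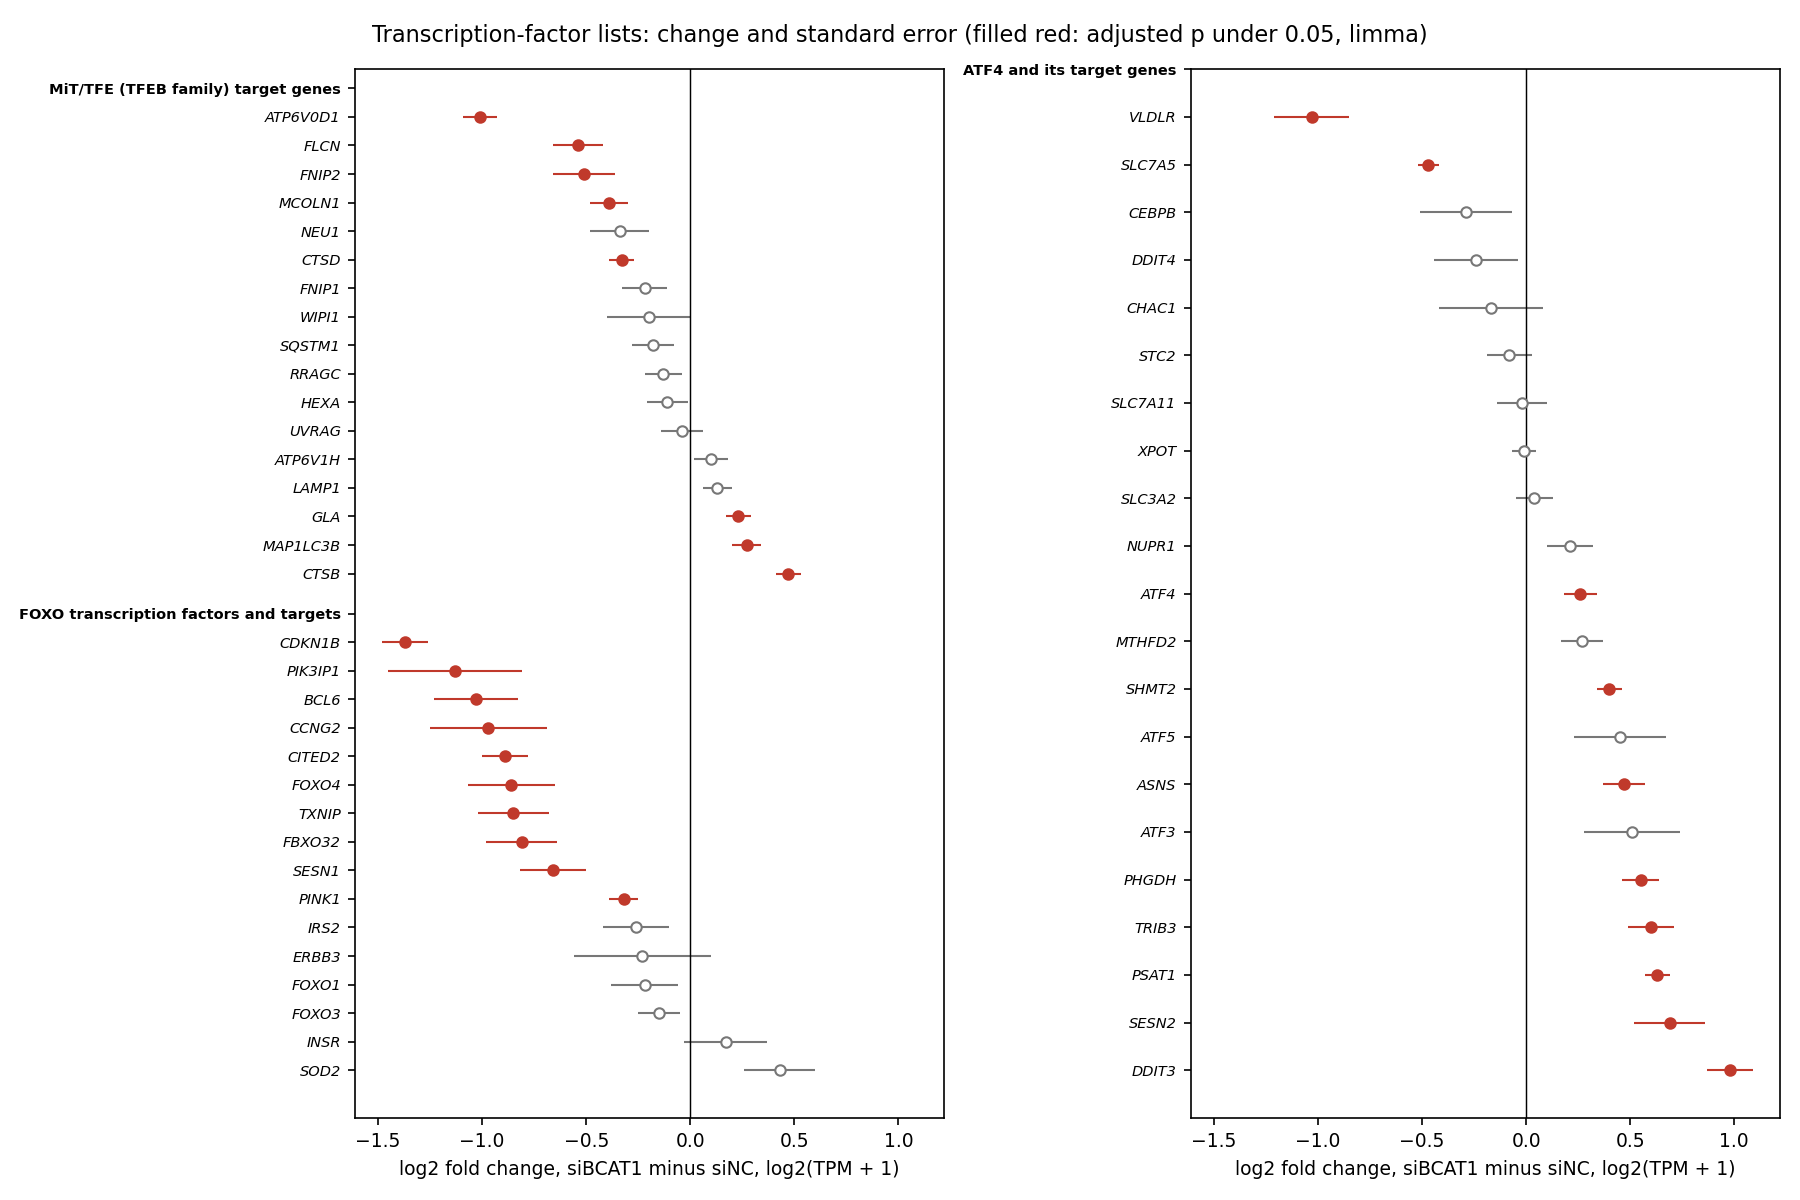
Log2 fold change (x axis, siBCAT1 minus siNC on log2(TPM + 1)) with its standard error for the tested genes of 3 lists of factor targets, filled red where the adjusted p was under 0.05 from limma. All 10 called genes of the FOXO list stand left of 0, 8 of the 10 called genes of the ATF4 list stand right of it, and the called genes of the MiT/TFE list stand on both sides.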

How the data were processed

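Stranded mRNA libraries, 6 in all, were processed by the authors, who per the labels used fastp, HISAT2 and StringTie on GRCh38. Versions and annotation are not given in the sources used here. The authors deposited 1 TPM value per gene and library, and the unit was read from the column sums and decimals. TPM hold no depth, and precision comes from how far libraries of a group spread. At most 1.42% of tested genes had equal values in 2 libraries, so no library repeated another.

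Genes whose mean reached 1 TPM were fitted on log2(TPM + 1) with limma 3.58.1 in R 4.3.3 (eBayes with trend, two-sided, Benjamini-Hochberg over all tested genes, threshold 0.05), after a test on simulated data. Ratios of 2 members within a library were compared by an exact permutation test. Python 3.11.15 with pandas 2.3.3 was used for tables.

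The members and lists were chosen with earlier results of these data known. Genes named by rule were BCAT1, the members, RRAGB, MLST8, AKT1S1, RICTOR, folliculin and its partners, the MiT/TFE factors, ATF4, FOXO1 and FOXO3. The rule also took the 2 largest rises and 2 largest falls called in each list. It added the 3 genes nearest in profile to the members with the largest rise and fall. EPCAM, CD3E, VWF, PECAM1, DDIT4L, PRKAA2, COL3A1, TELO2, TTI1, LAMTOR3, LAMTOR5, FOXO4 and SLC3A2 were named outside this rule, with their values known. Some genes that the rule names are not reported here. Alternatives were no filter, a mean of 5 TPM, a pseudocount of 0.1, the replicate block, each library left out, median-ratio scaling, quantile normalization and no trend, and, added after the data were seen, loess-corrected values (GC content and length, span 0.5).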

Additional observations from a re-analysis of the deposited data

How the results depend on the processing

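RPTOR was called under all 15 alternatives, and none of the 8 tested members changed direction in any. With no filter, which adds many low genes to the adjustment, 2567 of all genes and 1 member were called, and SESN1 (-0.66, adjusted p = 0.0858), SESN2 (0.69, 0.0748), DEPTOR (-0.92, 0.120) and RRAGA (-0.36, 0.0658) passed no longer in limma. DEPTOR was also lost without the trend (-0.92, adjusted p = 0.0556). The split by direction moved with scaling. In the main fit 2382 of all genes were called higher and 1483 lower. After median-ratio scaling these counts were 1957 and 1802, and after quantile normalization 2042 and 1865. The pathway genes called went from 14 higher and 14 lower to 14 and 16, and to 12 and 17. The shares by direction given above hold for the main fit. With each library left out in turn, between 1 and 4 members, 15 and 25 pathway genes and 2318 and 3706 of all genes were called, from fits on fewer libraries. The log2 fold change then lay between -0.76 and -0.56 for SESN1, 0.53 and 0.81 for SESN2, -1.18 and -0.73 for DEPTOR and -0.46 and -0.31 for RRAGA.

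The replicate numbers do not pair the libraries by the labels. Deviations from the group means of equally numbered libraries correlated over genes at 0.0844, 0.102 and 0.124, each library best with its own number, a hint from the data. With the replicate block 6 members, 31 pathway genes and 4568 of all genes were called in limma, with DDIT4 added (-0.24, adjusted p = 0.0251), and with a GC and length correction as well (-0.28, adjusted p = 0.0137). The cause was not tested.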

Other observations

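The list of target genes of the MiT/TFE factors (TFEB, TFE3 and MITF), which mTORC1 keeps out of the nucleus through RRAGC and RRAGD, moved in both directions: 3 of 17 tested genes rose and 5 fell, 47.1% in all against 27.1% of all tested genes, with a median log2 fold change of -0.18. The 8 calls became 4 without siNC replicate 1, siBCAT1 replicate 2 or siBCAT1 replicate 3, and 5 without siNC replicate 3. CTSB, a lysosomal protease, rose from 184 ± 7.06 to 256 ± 11.4 TPM (SD, n = 3 each, adjusted p = 0.00152 from limma). ATP6V0D1, a subunit of the lysosomal proton pump, fell from 133, 157 and 144 TPM in siNC to 66.1, 75.8 and 73.3 TPM in siBCAT1 libraries, a log2 fold change of -1.01 (SE 0.08, limma adjusted p = 0.000418). TFEB, TFE3 and MITF had log2 fold changes of -0.29, -0.05 and -0.39 (adjusted p between 0.128 and 0.597 from limma).

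By Euclidean distance between centred log2(TPM + 1) profiles over the 6 libraries, the tested genes closest to SESN2 were FOXD2-AS1 (0.144), SH2D2A (0.152) and MAFF (0.155). Those closest to DEPTOR were SCNN1A (0.273), HLA-DMA (0.323) and RIPK1 (0.362). These libraries share a group difference, so closeness describes these 6 values only.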
